A study of Drosophila melanogaster with 26 samples.

Results

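On the chromosome arms of Drosophila melanogaster, 392 regions were called as ChIP-seq peaks in WT embryos and in no mutant embryos. The mutant embryos lacked ACF1 or RSF-1, and not every antibody was used on them. These 392 regions are called WT-only regions here. To find them, the peaks of the 13 libraries made with an antibody against ACF1 or RSF-1 were merged where neighbours had at least 50 bp in common, which gave 10863 regions, 9761 of them outside the heterochromatic and unplaced sequences (names ending in Het, U or Uextra). A region was kept when at least 2 of the 9 WT libraries had a peak in it, when at least 1 of these was made with a rabbit antibody, and when none of the 4 mutant libraries had one. The WT part of this rule was met by 4793 arm regions, and the WT-only regions are 8.18% of them (exact 95% confidence interval 7.42 to 8.99%). The other 4401 had a mutant peak and are called shared regions. Calls in the 13 antibody libraries chose the regions, so that these calls are given as a description without a test. A missing peak means that none was called, and not that the DNA was not enriched.

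ACF1 and RSF-1 are large, non-catalytic subunits of chromatin remodelers with the ATPase ISWI. ACF1 belongs to ACF and CHRAC and RSF-1 to RSF, complexes that slide or assemble nucleosomes into regular arrays. In a ChIP experiment on embryos without the antigen, peaks cannot come from the antigen. The libraries of mutant embryos serve as the control for the WT libraries of the same antibody.

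Chromatin came from unstaged embryos of 0 to 12 h after fixation with 3.7% formaldehyde, and the labels give Oregon-R as the strain of every sample. ACF1 ChIP from acf1 embryos (allele acf1-7) gave 3 libraries, 1 with the rabbit polyclonal antibody Rb1 and 2 with Rb2, and RSF-1 ChIP from rsf-1 embryos (allele rsf1-3602) gave 1, also with a rabbit polyclonal. Both alleles are deletions made by imprecise excision of a P-element. From WT embryos there were 2 RSF-1 libraries, 1 ACF1 library with Rb1, 3 with Rb2 and 3 with the rat monoclonal 3F1, which has no mutant library and was precipitated in another way. Libraries that used neither antibody were 3 with pre-immune rabbit serum from WT embryos and 10 of input chromatin (2 acf1, 1 rsf-1 and 7 WT). The 26 libraries came from 10 batches of chromatin, and no WT library shares its batch with a mutant library. For the regions described here, genotype and batch can therefore not be told apart.

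The lists of the 4 mutant antibody libraries held 1984 (Rb1 acf1), 2226 and 5184 (Rb2 acf1) and 5346 (RSF-1 rsf-1) peaks, and those of the 9 WT antibody libraries 1001 to 5636. The number of reads behind each list was not used here, and a shallower library can lose weak peaks. On the arms, the inputs held 28 to 1394 peaks, and the pre-immune libraries 365, 257 and 1. The most similar lists with more than 1 peak (both acf1 inputs) had 11.9% of the shorter list in identical positions, so that no list was a copy of another.

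The WT-only regions were called in few of the WT libraries. A peak in only 2 libraries was found for 189 of them, in 3 for 99, in 4 for 66, in 5 for 24, in 6 for 5, in 7 for 8 and in 8 for 1. None was called in all 9, whereas 419 shared regions were. With a median of 3 WT libraries against 5 for shared regions, 9.69% of the WT-only regions and 54.6% of the shared regions had a peak in 5 or more. The percentage of arm regions without a mutant peak was 18.9% for those called in 2 WT libraries (189 of 999, exact 95% confidence interval 16.5 to 21.5%), 3.54% for those in 5 (2.28 to 5.22%) and 0% for those in 9 (0 of 419, up to 0.877%). These intervals treat regions as independent and cover counting error alone. The merged WT-only regions had a median width of 237.5 bp (200 to 447 bp), against 263 bp for shared regions. Where a region rested on only 2 WT peaks, the centres of these peaks were a median of 27 bp apart in both sets.

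**Figure D1:**
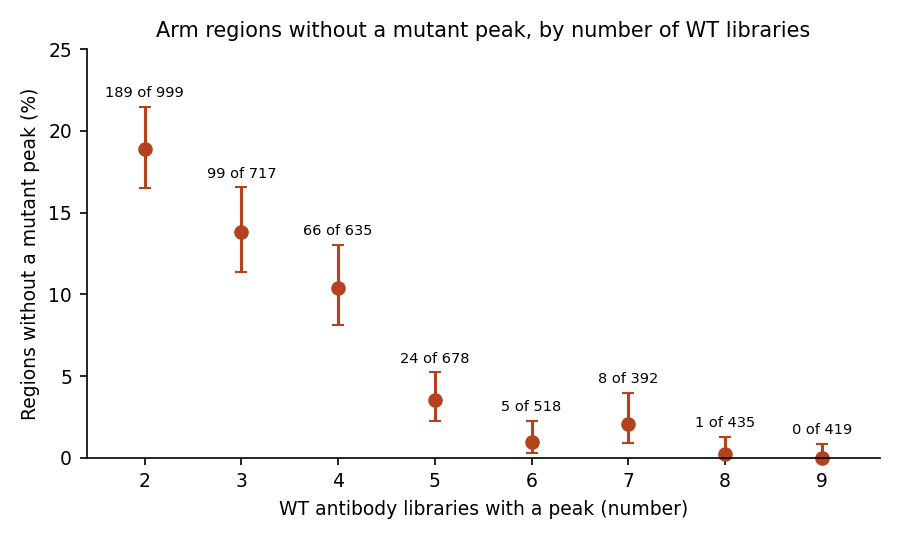
Percentage of arm regions without a mutant peak (y axis) by the number of WT antibody libraries with a peak (x axis). Points are percentages with exact 95% confidence intervals, and the numbers above them count the WT-only regions among all regions of that class. The percentage is 18.9% for 2 libraries and 3.54% or lower for 5 or more.

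Each WT library contributed, in different measure. Rb2 replicate 2 had a peak in 204 WT-only regions (52.0% of them, against 76.6% of the shared regions) and RSF-1 replicate 1 in 192 (49.0% against 94.4%). Next came the 3F1 libraries with 151 (38.5% against 42.0%), 169 (43.1% against 63.0%) and 119 (30.4% against 36.6%). Rb2 replicate 3 had 123 (31.4% against 51.6%) and RSF-1 replicate 2 had 96 (24.5% against 70.8%). The fewest were found in Rb2 replicate 1 with 64 (16.3% against 49.6%) and in Rb1 with 35 (8.93% against 16.0%). The gap between both percentages was widest for the RSF-1 libraries and narrowest for 3F1 replicates 1 and 3. No library had a peak in a larger share of the WT-only than of the shared regions.

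**Figure D2:**
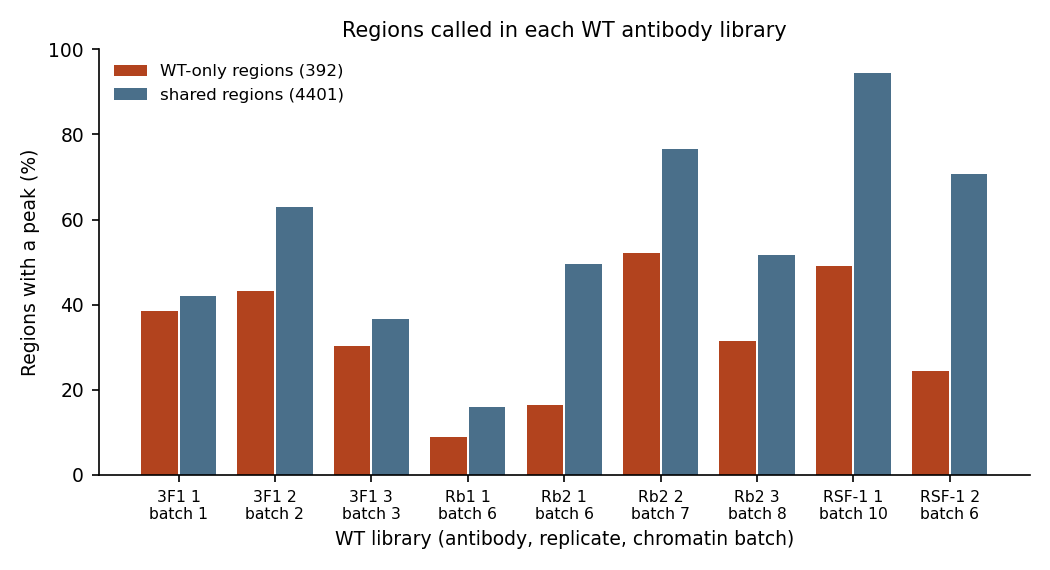
Percentage of WT-only regions (392, left bars) and of shared regions (4401, right bars) with a peak in each of the 9 WT antibody libraries (x axis, with the antibody, the replicate and the chromatin batch). Shared regions have the higher bar in every library, with 94.4% against 49.0% for RSF-1 replicate 1 and 42.0% against 38.5% for 3F1 replicate 1.

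By antibody, 3F1 had a peak in 265 WT-only regions, Rb2 in 284, Rb1 in 35 and RSF-1 in 255. ACF1 and RSF-1 antibodies both called 251 of them, 137 were called by ACF1 antibodies without RSF-1, and 4 by RSF-1 alone. This split depends on the rule, since most WT libraries are of ACF1 and a region of RSF-1 alone needs both RSF-1 libraries. RSF-1 replicates 1 and 2 called 49.0 and 24.5% of the WT-only regions, against 94.4 and 70.8% of the shared regions. The commonest combinations of antibodies were 3F1 with RSF-1 (96 regions), 3F1 with Rb2 (89), Rb2 with RSF-1 (87) and these 3 together (52). Replicates of an antibody differed in how many of these regions they had in common. Both RSF-1 libraries called 33, which is 17.2% of the WT-only regions of replicate 1 and 34.4% of those of replicate 2, while among shared regions these percentages were 73.0 and 97.4%. All 3 Rb2 libraries had 8 regions in common, and 99 were called in at least 2 of them. The 3F1 libraries had 55 in common. 3F1 replicates 1 and 3 both called 97, or 64.2% of those of replicate 1 and 81.5% of those of replicate 3, against 79.0 and 90.6% among shared regions. In all, 109 different sets of WT libraries were found, and the 189 regions with 2 peaks fell on 24 different pairs, most often 3F1 replicate 2 with RSF-1 replicate 1 (41 regions), followed by Rb2 replicates 2 and 3 (25).

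When WT and mutant libraries of the same antibody were set side by side, 85 of the 3066 arm regions called in both RSF-1 WT libraries (2.77%) had no peak in the rsf-1 library, and 33 of the 85 were WT-only by the whole rule. For Rb2, 160 of 2741 regions called in at least 2 WT libraries (5.84%) had no peak in either acf1 library made with Rb2, and 99 of them were WT-only. Among regions called in all 3 Rb2 WT libraries, these numbers were 16 of 1501 (1.07%) and 8. For Rb1, with 1 library of each genotype, 442 of 752 WT regions (58.8%) had no Rb1 peak in acf1 embryos. No other mutant library had a peak in 45 of the 442, and 35 of these were WT-only. If the ACF1 libraries alone had been used, a choice added after seeing the data, 351 regions would have been kept, and 109 of these (31.1%) overlapped a peak of the RSF-1 antibody in rsf-1 embryos. Of the 3124 regions that the same rule would count as shared, 2806 (89.8%) did so.

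Just outside the rule lay 674 regions with a peak in a single mutant library. This library was RSF-1 rsf-1 for 395 and Rb2 acf1 replicate 2 for 228, the longest mutant lists, Rb1 acf1 for 30 and Rb2 acf1 replicate 1 for 21. Without the rsf-1 library the number of WT-only regions would be 792, and without Rb2 acf1 replicate 2 it would be 627, against 422 without Rb1 acf1 and 414 without Rb2 acf1 replicate 1. Leaving out 1 WT library gave 281 (without RSF-1 replicate 1) to 386 (without 3F1 replicate 3). On the WT side, 1079 further arm regions were called in 1 rabbit library and in no mutant library. Another 145 were called in 2 or 3 libraries of 3F1 and in no other antibody library. Regions called in a single 3F1 library are not among these. In the opposite direction, 139 arm regions had a peak in at least 2 of the 4 mutant libraries and in none of the 9 WT libraries. The total called in at least 2 mutant libraries is not given here, and the thresholds differ from those of the rule. This number can therefore not be compared with that of the WT-only regions.

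Many of the WT-only regions lay close to a mutant peak. The nearest region called in a mutant library was a median of 2918 bp away (quartiles 324 and 7983 bp), while shared regions had their nearest other mutant-called region at a median of 4278 bp (1596 and 8207 bp). Within 200 bp there was one for 71 WT-only regions (18.1%) and for 183 shared regions (4.16%), and within 1000 bp for 150 (38.3%) and 848 (19.3%). These distances run to merged regions with a mutant call and not to single peaks. A mutant peak merged into a shared region does not count as its neighbour, so that both sets are not measured alike. In 12 cases a mutant peak overlapped the WT-only region, by 48 bp at most and thus by less than the rule required. The closest was the region from 10456347 to 10456582 on chromosome 3L (Release 5 of the genome, here and below), which 3F1 replicate 2 and RSF-1 replicate 1 had called and where a peak of the rsf-1 library reached 48 bp into it. The farthest lay on 3R from 15151728 to 15151967, at 77019 bp from the nearest mutant peak. This one was called in 3F1 replicates 1 and 3, Rb2 replicate 2 and RSF-1 replicate 1, and in no input or pre-immune library. Counting a mutant peak within 1000 bp as present left 246 WT-only regions.

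The 9 regions with the most WT libraries show how far the calls of this set go. A single region, on 2R from 148814 to 149145, was called in 8 WT libraries, all but RSF-1 replicate 1, with the nearest mutant peak 10831 bp away. It also had a peak in WT inputs 3, 4 and 5 and in both pre-immune libraries that hold more than 1 peak. Of the 8 regions called in 7 WT libraries, 4 had the same 7, namely the 3 of 3F1, Rb1, Rb2 replicates 1 and 2 and RSF-1 replicate 2. These lie on 3L from 7677518 to 7677864 and from 23459555 to 23459907, and on X from 8188907 to 8189145 and from 21682503 to 21682833. Their nearest mutant peaks were 7865, 18897, 164 and 444 bp away, in this order. The 7 libraries are all those of batches 1, 2, 3, 6 and 7, and the ones without a peak, Rb2 replicate 3 and RSF-1 replicate 1, are those of batches 8 and 10. This agreement of calls with batches was noticed in the data and not tested. Most of the set does not show it. Of the 392 WT-only regions, 273 were called in a library of batch 8 or 10, and 119 in libraries of batches 1, 2, 3, 6 and 7 alone. Inputs had peaks in 3 of the 4 regions with the same 7 libraries. On 3L at 7677518 the inputs with a peak were WT 1 to 5, which are again those of batches 1, 2, 3, 6 and 7. At 23459555 they were WT 3, 4 and 5, and on X at 21682503 they were acf1 1 and every WT input but WT 3.

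The other 4 regions with 7 libraries had more varied sets. On 2R from 158343 to 158625, the calls came from 3F1 replicates 1 and 3, Rb1, Rb2 replicates 1 and 2 and both RSF-1 libraries, and WT inputs 4 and 5 had a peak there too. No input or pre-immune library had a peak in the remaining 3. These lie on 2R from 3614643 to 3614883 (not called in Rb2 replicate 3 and RSF-1 replicate 2), on 2R from 4838491 to 4838747 (not called in 3F1 replicate 3 and Rb2 replicate 1) and on 3L from 16949316 to 16949547 (not called in Rb2 replicates 1 and 3). Their nearest mutant peaks were 8585, 228 and 682 bp away, in this order. Both RSF-1 WT libraries and at least 2 ACF1 WT libraries had called 17 of the WT-only regions. The first 5 in genome order are 2 on 2L (from 13892819 to 13893070 and from 20874640 to 20874886) and 3 on 2R (158343, 4838491 and the region from 3165545 to 3165793, which had 6 WT libraries and its nearest mutant peak at 146 bp). Of these 5, only 2R 158343 had an input peak, and none had a pre-immune peak.

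The calls of input and pre-immune libraries did not enter the rule. These libraries were nevertheless made from the same batches of chromatin as the antibody libraries that did. Pooled over the WT antibody libraries, antibody calls went with input peaks of the same batch, though not in every library. The input and pre-immune calls are therefore not independent of the rule. The methods also do not spell out whether inputs served as controls in the peak calling. A supplement of the study does list an input control for each ChIP library. A peak in at least 1 of the 10 inputs was found in 31 WT-only regions (7.91%, exact 95% confidence interval 5.44 to 11.0%) and in 90 shared regions (2.04%, 1.65 to 2.51%). The background over all 9761 merged arm regions was 2.17%. WT inputs had a peak in 28 WT-only regions (7.14%, background 1.98%), and acf1 or rsf-1 inputs in 8 (2.04%, background 0.553%). In the single inputs, the percentage of WT-only regions with a peak was 0.765 and 0.255% for acf1 and 1.53% for rsf-1, and from 1.02% to 3.57% (median 2.55%) for the 7 WT inputs. For shared regions it was 0.341, 0.386 and 0.295% in the mutant inputs and 0.295 to 1.34% (median 0.386%) in the WT inputs. The rule asked for peaks in WT chromatin of these batches and for none in mutant chromatin. This favours a higher percentage in WT-only than in shared regions for the WT inputs. The p-values of this comparison are therefore given as a description. The same regions also recur across inputs, since 12 of the 31 WT-only regions with an input peak had one in 3 or more inputs. A like direction in several inputs is therefore in part that of the same regions. On average, WT inputs had a peak in 2.37% of WT-only and 0.549% of shared regions, and mutant inputs in 0.85 and 0.341%. All inputs but acf1 replicate 2 had peaks in a larger percentage of the WT-only than of the shared regions. Over the 10 inputs the difference was 1.43 ± 0.87 percentage points (SD, n = 10, higher in 9 of 10 inputs, two-sided exact permutation test by sign flips, p = 0.00391, adjusted over 4 tests 0.0156, smallest possible p 0.00195). In the 7 WT inputs alone it was 1.82 points (higher in 7 of 7, exact permutation, p = 0.0156). Without the 1 Mb at the centromeric end of each arm and without chromosome 4, a choice added after seeing the data, it was 0.757 points (exact permutation, p = 0.00195), and it was 0.629 points without the rsf-1 antibody library, 0.74 points without Rb2 acf1 replicate 2 and 0.426 points at an overlap of at least 150 bp, each with p below the threshold.

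Between genotypes, WT-only regions had an input peak in 0.85 ± 0.64% of cases for the mutant inputs (SD, n = 3) and in 2.37 ± 0.86% for the WT inputs (SD, n = 7). Both groups overlapped, since the rsf-1 input and WT input 7 had the same 1.53% and WT input 6 had 1.02%. The difference was -1.52 percentage points, and -1.31 points when the percentage for shared regions was first subtracted within each input. The rule asked for peaks in WT chromatin and for none in mutant chromatin, which favours this direction, so that the difference is given as a description. By the exact permutation test planned for it, the first difference did not pass the threshold of 0.05 (two-sided, 120 splits, p = 0.05, adjusted over 4 tests 0.1, smallest possible p 0.00833). As a percentage of the arm peaks of each input, a measure added after seeing the data, 8.38 ± 5.06% lay in WT-only regions for the mutant inputs and 13.6 ± 11.2% for the WT inputs. By this measure the difference was -5.18 points (exact permutation, p = 0.525). The mutant inputs held 31 to 45 peaks on the arms, and the WT inputs 28 to 1394.

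**Figure D3:**
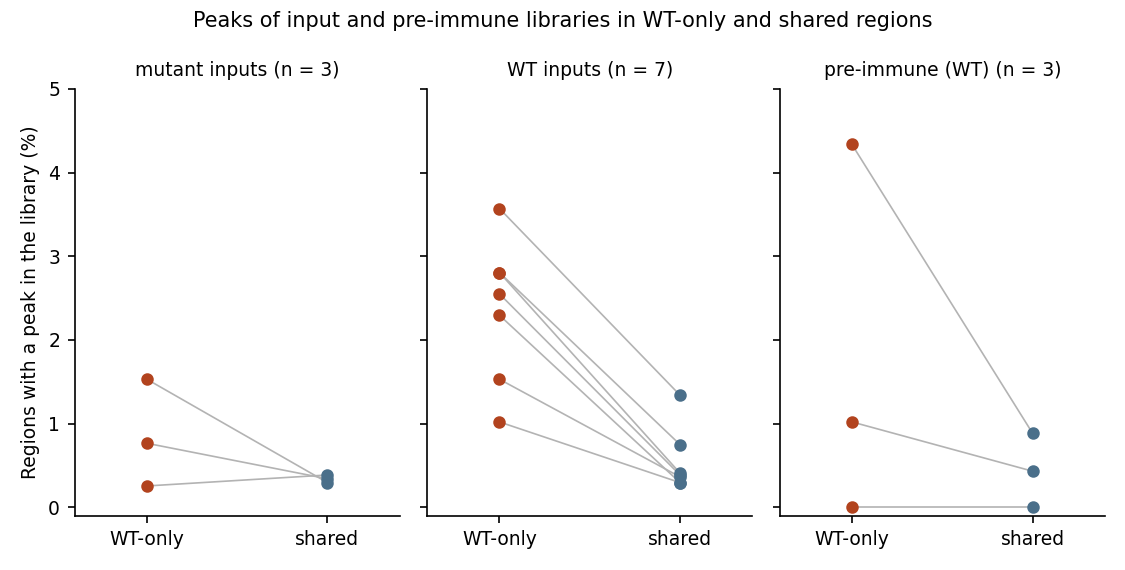
Percentage of WT-only regions (left points) and of shared regions (right points) with a peak in each mutant input (left panel, n = 3), WT input (middle panel, n = 7) and pre-immune library (right panel, n = 3), with a line for each library. All 7 WT inputs lie higher for WT-only regions, and in the mutant inputs both sets are between 0.255 and 1.53%.

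With pre-immune serum, peaks were called in 17 WT-only regions (4.34%) for Rb2 replicate 1, in 0 of 392 for Rb2 replicate 2 (up to 0.937%), whose list holds a single peak, and in 4 (1.02%) for the other rabbit serum. For shared regions the percentages were 0.886, 0 and 0.432%. Together 19 WT-only regions had a pre-immune peak (4.85%, background 2.26%). The difference to shared regions was 1.35 ± 1.85 points (SD, n = 3, two-sided exact permutation by sign flips, p = 0.5), a design that cannot go below 0.25. It was 0.294 points without pre-immune Rb2 replicate 1, 2.02 points without replicate 2, 0.451 points without the rsf-1 antibody library and 0.791 points without Rb2 acf1 replicate 2. Pre-immune libraries and WT inputs had a peak in 1.79 ± 2.27% (SD, n = 3) and 2.37 ± 0.86% (SD, n = 7) of the WT-only regions. This difference of -0.58 points was within the spread of the libraries (two-sided exact permutation test over 120 splits, p = 0.6, smallest possible p 0.00833), and it was 0.31 points without pre-immune Rb2 replicate 2. The regions with both pre-immune peaks were 2R 148814 and 2R 80412 to 80626. This second region was called in 3F1 replicate 1 and Rb1 and had a peak in WT input 5. The next 3 in order of position, each with a peak in pre-immune Rb2 replicate 1 alone, lie on 2L from 13559138 to 13559405, from 13665558 to 13665821 and from 21606055 to 21606257. All of these 3 were called in only 2 WT libraries.

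Altogether 43 WT-only regions (11.0%) had an input or pre-immune peak and 349 had none, with a background of 4.08%. Input peaks were found in each class of calls. They were present in 6.35% of the WT-only regions with 2 WT libraries (12 of 189), 9.09% of those with 3 (9 of 99), 3.03% with 4 (2 of 66), 12.5% with 5 (3 of 24) and 35.7% with 6 or more (5 of 14). Shared regions had them in 2.59, 2.10, 1.23, 1.99 and 2.06% of these classes. Both regions with the most input peaks lie on X. The one from 15912280 to 15912479 had a peak in all 7 WT inputs, in the rsf-1 input and with pre-immune Rb serum, but in only 3 antibody libraries, Rb1, Rb2 replicate 1 and RSF-1 replicate 1. The other was X 21682503 with 7 inputs. Peaks in 5 inputs were found at 3L 7677518, on 2R from 2155771 to 2156087 and on chromosome 4 from 1323419 to 1323704. At 2R 2155771 the inputs were WT 1 to 5, and the antibody libraries were the 3 of 3F1, Rb1 and Rb2 replicate 1.

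Antibody peaks and input peaks could be compared within the same chromatin. Over the 9 WT antibody libraries, 62.7% of the WT-only regions with a peak in the input of the same batch were called (52 of 83 pairs of a region and a library), against 32.0% of those without (1101 of 3445). In batch 6, Rb1 and Rb2 replicate 1 each called 8 of the 9 regions with an input peak, against 7.05% (Rb1) and 14.6% (Rb2) of the 383 others, and RSF-1 replicate 2 called 6 of the 9, against 23.5%. For 3F1 replicate 2 the numbers were 11 of 14 and 41.8%. The percentages were closer for Rb2 replicate 2 (63.6 against 51.7%), 3F1 replicate 1 (50 against 38.2%) and 3F1 replicate 3 (36.4 against 30.2%). They were about equal for RSF-1 replicate 1 (50 against 49.0%). In batch 8, Rb2 replicate 3 called none of the 4 regions with an input peak and 31.7% of the others. Calls are what the regions were chosen by, and these pairs share regions and, in batch 6, chromatin, so that no test was made. When every antibody peak that the input of its batch also had was removed, in WT and mutant libraries alike, the rule chose 388 regions. This is a net number, because regions can both leave and enter the set. It does not count the WT-only regions that rest on such peaks.

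**Figure D4:**
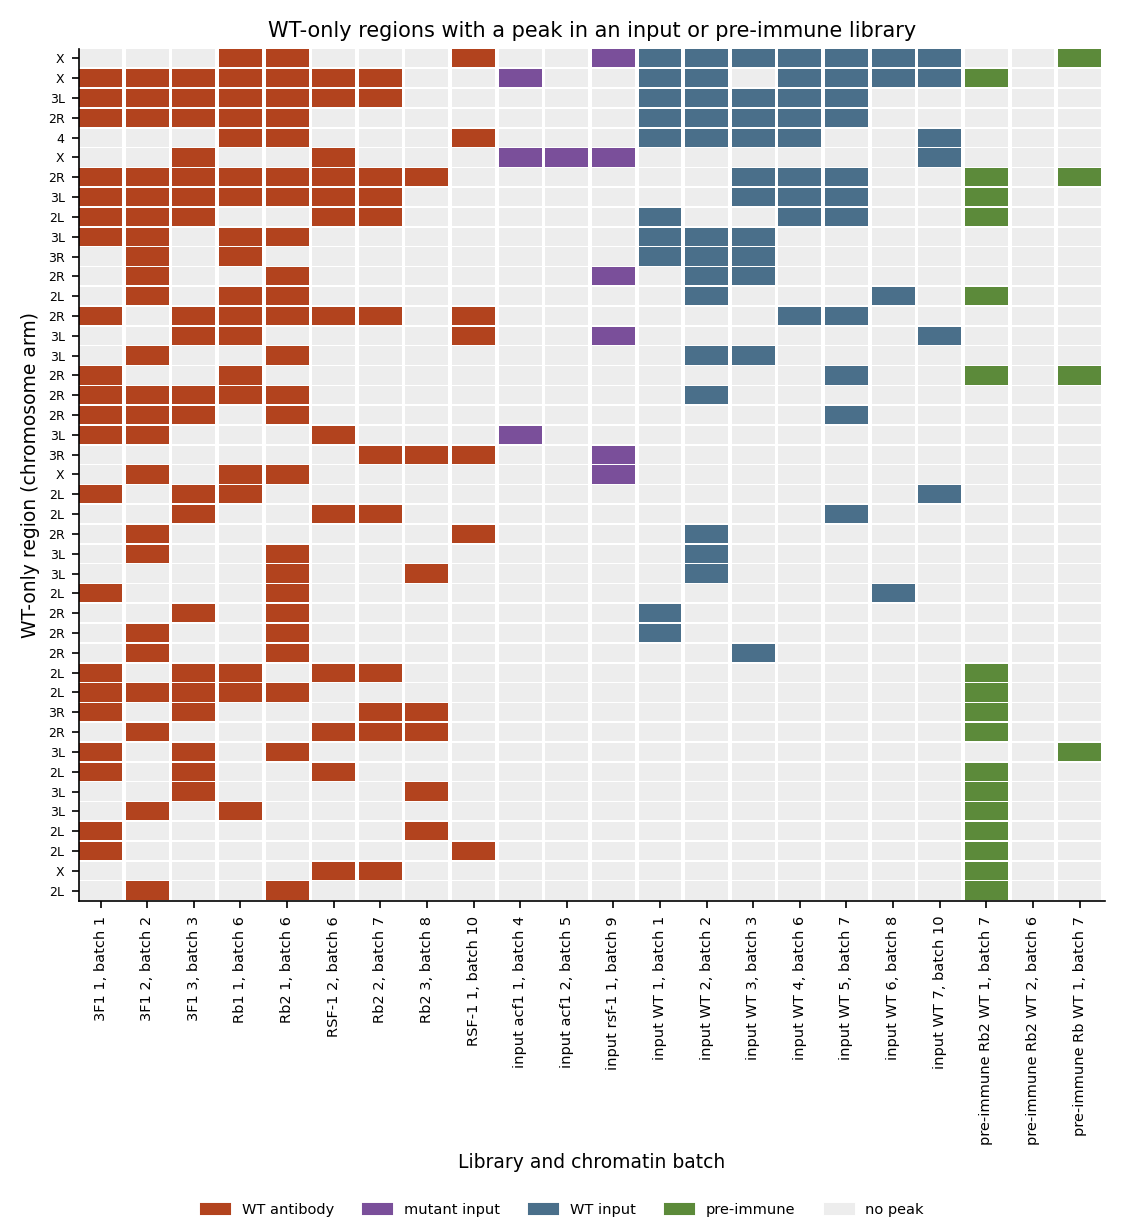
Peak calls at the 43 WT-only regions with an input or pre-immune peak. Rows are regions, named by their chromosome arm and ordered by the number of inputs with a peak, columns are libraries with their chromatin batch, and filled cells mark a peak (WT antibody, mutant input, WT input or pre-immune library). Peaks in 3 or more inputs are found in 12 regions, and in 1 case the peaks are in every mutant input.

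Along the genome, 61 WT-only regions lie on 2L, 67 on 2R, 104 on 3L, 65 on 3R, 12 on chromosome 4 and 83 on X. As a percentage of all arm regions that met the WT part of the rule, this is 7.27% on 2L (exact 95% confidence interval 5.61 to 9.24%), 7.35% on 2R (5.74 to 9.25%), 11.2% on 3L (9.22 to 13.4%), 5.96% on 3R (4.63 to 7.53%), 14.1% on chromosome 4 (7.51 to 23.4%) and 8.87% on X (7.12 to 10.9%). Among the 5 large arms 3L had the highest percentage in 12 of 13 sets with 1 antibody library left out. The exception was the set without the rsf-1 library, with 17.8% on 3L and 17.9% on X. Off the arms, 139 of 404 regions that met the WT part of the rule (34.4%, 29.8 to 39.3%) had no mutant peak.

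At the centromeric end of the arms, a larger part of the regions had no mutant peak. In the last 1 Mb before the centromeric end of the listed peaks, 42 WT-only regions were found on the 5 large arms, or 11.1% of the 380 on these arms, against 135 shared regions, or 3.12% of 4328. The percentage of regions without a mutant peak was 23.7% in this 1 Mb (17.7 to 30.7%), 11.4% from 1 to 2 Mb (7.21 to 16.9%), 8.87% from 2 to 5 Mb, 8.33% from 5 to 10 Mb and 6.55% (5.65 to 7.54%) beyond 10 Mb. In the first 1 Mb it was 46.2% on 3L (12 of 26), 34.1% on 2R (14 of 41), 25.6% on 2L (10 of 39), 17.4% on X (4 of 23) and 4.17% on 3R (2 of 48). On 3R the percentage was not above that of the whole arm (5.96%). With each antibody library left out, the percentage in this 1 Mb was 19.8 to 31.1%, and that outside was 5.93 to 15.8%. Of the 43 regions with an input or pre-immune peak, 22 lie in the centromeric 1 Mb, and of the 349 others 20 do. Outside it and off chromosome 4, inputs had a peak in 12 of 338 WT-only regions (3.55%) and in 71 of 4193 shared regions (1.69%).

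**Figure D5:**
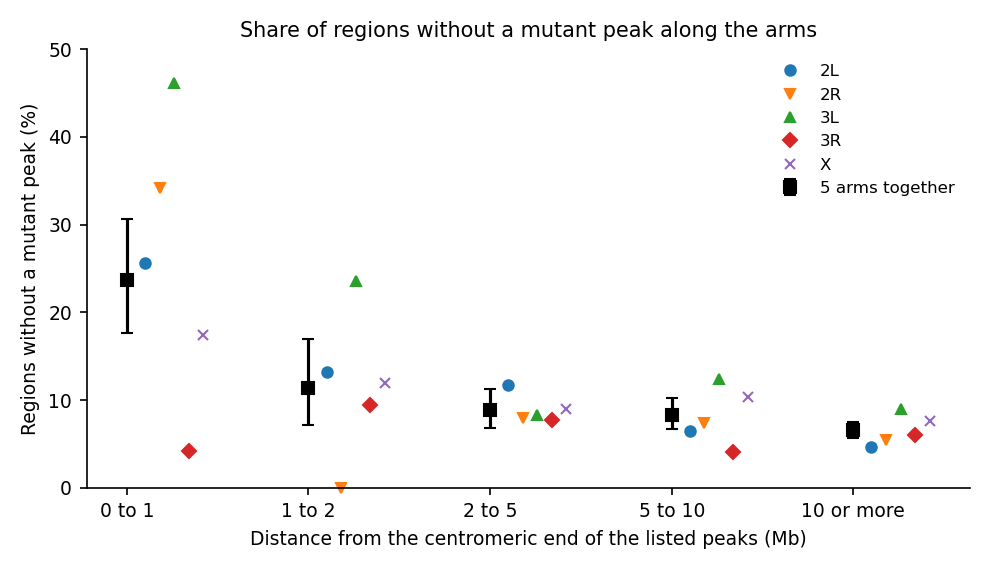
Percentage of arm regions without a mutant peak (y axis) by the distance from the centromeric end of the listed peaks in Mb (x axis). Squares are the 5 large arms together with exact 95% confidence intervals, and other symbols are single arms. The percentage is highest in the first 1 Mb (23.7%), with 46.2% on 3L and 4.17% on 3R.

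WT-only regions were mostly far from each other, with a median of 170931 bp between neighbours, and 13 of 386 neighbouring pairs were within 1000 bp. The densest group of 3 spans 1375 bp on 2R, from 157251 to 158625. Its first region, up to 157479, was called in the 3 libraries of 3F1 and in Rb2 replicate 1, with a peak in WT input 5. The second, from 157889 to 158125, was called in 3F1 replicate 3 and Rb2 replicate 1, with a peak in WT input 1, and the last is the region at 158343 with 7 WT libraries. On chromosome 4, the first 5 of the 12 regions were looked at singly. Those from 105080 to 105353 and from 340015 to 340357 were called in 4 WT libraries each, 3F1 replicates 1 and 3 with Rb2 replicates 1 and 2 at 105080, and the 3 libraries of 3F1 with Rb1 at 340015. In 2 libraries each were called the regions from 246515 to 246746 (3F1 replicate 1 and Rb2 replicate 2), from 298161 to 298446 (Rb2 replicate 3 and RSF-1 replicate 2) and from 363773 to 363992 (3F1 replicate 1 and Rb2 replicate 1). None of the 5 had an input or pre-immune peak.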

How the data were processed

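The deposited files are lists of peaks, 1 per library, with chromosome, start and end positions as their only values and no score or read number. The authors mapped the reads with Bowtie (version 1.1.1) to Release 5 of the genome (dm3), keeping unique hits. Their peaks are those that HOMER gave at its default settings. The lists hold 50336 peaks, all but 26 of them 200 bp wide. Starts are printed counting from 1.

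Peaks and regions were joined or compared at an overlap of at least 50 bp. Percentages carry exact (Clopper-Pearson) 95% confidence intervals, which cover counting error alone. Differences between libraries were tested with two-sided exact permutation or sign-flip permutation tests with a threshold of 0.05, and 4 p-values were adjusted after Benjamini and Hochberg. Libraries are replicates by their labels, and antibody libraries of batch 6 share chromatin. The p-values measure the spread between these libraries, which may be technical in part. The labels put pre-immune Rb2 replicate 1 in batch 7 and replicate 2 in batch 6, and a supplement of the study has them the other way round. The regions, lists and comparisons were chosen with earlier results of these data known.

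Named regions were those with the most WT libraries, the first 5 by position among those with the most input or pre-immune peaks or with both RSF-1 and 2 ACF1 libraries, the first 5 of chromosome 4, the densest 3, and the nearest to and farthest from a mutant peak. Other choices were an overlap of at least 1 or 150 bp, at least 3 WT libraries, any antibody, all sequences, mutant peaks within 200 or 1000 bp, antibody peaks left out where the same-batch input had one, and each library left out. Scripts in Python 3.11.15 (numpy 2.4.6, scipy 1.17.1, matplotlib 3.10.9) were tested on simulated data. Genes at the regions and their sequences were not analysed here, because no genome of Release 5 was used.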

Additional observations from a re-analysis of the deposited data

Results flagged for a closer look

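Among the 7 WT inputs, replicate 2 stood apart with 1394 peaks on the arms, against 28 to 490 in the other 6. It also had the highest percentage of WT-only regions with a peak (3.57%), although this value itself did not stand apart. Chance alone would single out about 1 library in 20 such groups.

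The difference between WT-only and shared regions in the percentage with an input peak was not the same for both kinds of input. It was lower by 1.31 points (-1.31, mutant minus WT inputs, two-sided exact permutation test over 120 splits, p = 0.025). Because the rule asked for peaks in WT chromatin and for none in mutant chromatin, it favours this direction, and the p-value is not evidence of a difference between genotypes. The mutant inputs come from other batches of chromatin than the WT inputs, so that genotype and batch cannot be told apart.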

How the results depend on the processing

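The number of WT-only regions depended on the rule. It was 203 with at least 3 WT libraries and 246 when a mutant peak within 1000 bp counted, and 281 (without RSF-1 WT replicate 1) to 792 (without the rsf-1 library) with 1 antibody library left out. The percentage of regions without a mutant peak was 11.5% at an overlap of 150 bp, 5.35% with at least 3 WT libraries, 10.8% with any antibody and 10.2% over all sequences. It was 6.74 and 5.13% when mutant peaks within 200 and 1000 bp counted, and 6.64% (without Rb2 WT replicate 2) to 16.5% (without the rsf-1 library) with 1 library left out.

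The higher percentage of input peaks in WT-only than in shared regions kept its direction and passed the threshold under all 33 alternatives. The rule favours this direction in the WT inputs, and the alternatives reuse mostly the same libraries and regions. These p-values are therefore given as a description and not as independent support. The difference between mutant and WT inputs, whose direction the rule favours, stayed negative and had an exact p below 0.05 under 13 of 34. These were at least 3 WT libraries (-2.46 points), all sequences (-7.39), mutant peaks within 200 bp (-2.14) or 1000 bp (-2.13), and the sets without 3F1 replicate 2 or 3, Rb2 acf1 replicate 2, Rb2 WT replicate 3, either RSF-1 WT library, WT inputs 6 or 7, or the rsf-1 input. With 1 library left out it was -2.07 to -0.94 points (exact permutation, p = 0.0238 to 0.167). The fit with the replicate block, which pairs acf1 inputs 1 and 2 with WT inputs of the same number that share nothing but it, gave -2.55 points.

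The difference between pre-immune libraries and WT inputs turned positive at an overlap of 150 bp (0.0888 points), was 0 without Rb1 acf1, and was -6.89 over all sequences (exact permutation, p = 0.0333). With 1 library left out it was -1.86 (without pre-immune Rb2 replicate 1) to 0.31 points (without replicate 2). The difference between WT-only and shared regions in pre-immune peaks stayed positive under all 24 alternatives (0.294 to 2.02 points with 1 library left out). The cause of these shifts was not tested. Read numbers were not used, so that weak enrichment in the mutant libraries below the calling threshold could not be measured. For ACF1, the study states, with data not shown, that regions called only in WT kept their enrichment in acf1 embryos. That statement is about its own peak sets, which were chosen by another rule.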
